A study of Salmo salar with 31 samples.

Results

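The subject here is a group of 81 array features, out of 14841, whose median signal in Atlantic salmon skin was lower in post-smolts than in smolts in both rearing systems and at both sampling times. A feature is a spot with a probe of its own, and its value is an intensity in arbitrary units. The features were chosen from the authors' deposited table of scaled intensities. In each group of fish the median of the log2 intensity was taken, with blanks and values under 16 set to 16. A feature was included if its highest group median was at least 6 on the log2 scale (an intensity of 64) and its median in each of the 4 post-smolt groups was lower than in smolts by at least 0.8, which is 1.74-fold. The difference of group medians from smolts is called the fall here. Since the falls chose the features, they are given as a description, with no test.

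Total RNA was extracted from skin, labelled with Cy3 and hybridized to a salmon oligonucleotide array, with 1 array for each of 31 fish. The 7 smolts were sampled in freshwater, and all post-smolts came from the same batch. Groups of 6 post-smolts came from a conventional open net-pen after 1 month (net-pen 1M) and 4 months (net-pen 4M) in seawater, and from a semi-closed containment system, a floating raceway fed with deep water, at the same times (S-CCS 1M and S-CCS 4M). All fish were of 1 commercial strain (Salmobreed QTL duo) on commercial freshwater or seawater feeds. Smolts were produced at a freshwater site by shortened days followed by constant light, and the batch was transferred as yearlings. No other treatment is described, apart from the rearing itself. No group stayed in freshwater, so the falls combine seawater, rearing site and conditions, feed, age, growth and season, which cannot be told apart. Each system was a separate farm with its own temperature and salinity, so that differences between systems cannot be told from differences between farms either.

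Skin of salmon is a living barrier. Its epidermis has no dead horny layer and carries mucus cells that secrete mucins and antimicrobial proteins, and the dermis beneath holds scales, collagen, pigment cells, blood vessels and immune cells. Smoltification prepares the fish for seawater by silvering of the skin, a change of ion transport and shifts in hormones and immunity, and after transfer the skin works against water loss rather than water gain. A whole skin sample mixes all of these cells, and fewer cells of a type and less RNA per cell cannot be told apart in it. None of the probe identifiers was found among the 65341 genes of the species' reference annotation, so the features are given by identifier, without gene names or roles. Marker lists for skin cell types, which would have checked the tissue, could not be looked up for the same reason.

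Most of the features kept the scanner's flag for a signal above background. Of the 81, 67 were well above background on all 31 arrays, as were 11904 of all 14841 features. None of the 81 had a group without an array above background. This flag was also given at intensities near 16, as for Ssa#CB509156 below, so it does not tell a reduced signal from a lost one. On the log2 scale, the median fall at 1M was 1.99 for net-pen and 1.58 for S-CCS, and at 4M it was 1.55 for net-pen and 1.65 for S-CCS. The median difference over all 14841 features was 0 in every group, but features at the floor in both groups enter it as 0. Of all features 9008 had a highest group median of at least 6, and the median difference over these is not given. Averaged over the groups, the median fall of a feature corresponded to 3.50-fold. The average fall was at least 2 in 29 features and at least 3 in 5, and it was under 1 in 2. Net-pen 1M had the lowest median of the groups in 38 features, net-pen 4M in 18, S-CCS 4M in 15 and S-CCS 1M in 10. The highest post-smolt median was that of net-pen 4M in 31 features, net-pen 1M in 19, S-CCS 1M in 17 and S-CCS 4M in 14. The same order was thus not shared by all features. The counts use the medians that chose the features, and the same counts over all features are not given, so no trait of a group is read from them. The 13 co-varying features of set B, described below, were in both the 38 and the 31. Net-pen 1M shared no slide with another group.

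**Figure D1:**
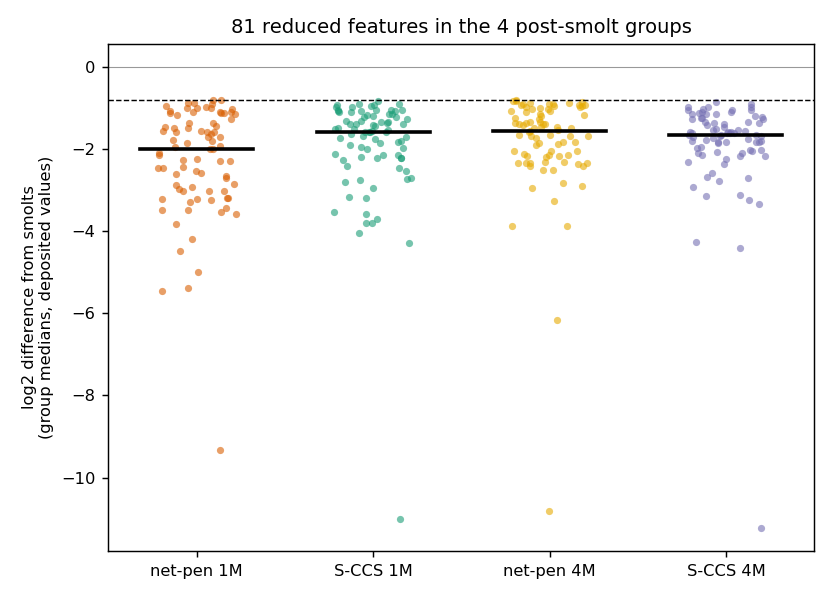
Difference from smolts of the 81 features in each post-smolt group, in log2 units of the deposited intensity (group medians). Each point is a feature, bars are medians over features, the dashed line is the limit of -0.8 that chose them, and the lowest point in each column is Ssa#CB509156, between -9.34 and -11.23.

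In each fish, the median log2 intensity over the 81 features was between 7.80 and 9.26 in smolts. It was between 6.21 and 7.20 in net-pen 1M, between 6.70 and 7.21 in S-CCS 1M, between 7.10 and 7.60 in net-pen 4M and between 6.61 and 7.40 in S-CCS 4M, so that no post-smolt reached the lowest smolt. The share of an array's summed intensity in these features was 1.70% to 2.45% in smolts. In post-smolts it was 0.335% to 0.736%, apart from net-pen 1M fish 1 with 1.72%. Its high signals of Ssa#CB509156, Ssa#CK888312 and Ssa#CK892092 are given below. Smolts shared 4 slides with post-smolts, and the values within them are given as a description, since the rule had used the same fish. On slides 5 and 6, with 2 smolts and 2 post-smolts each, 74 and 80 of the 81 features were lower in S-CCS 4M than in smolts, by a median of 1.25 and 1.89, against 52.9% and 51.2% of all features. On slide 7, with 2 of each, 73 were lower in net-pen 4M, by a median of 1.13, against 45.4% of all features. On slide 10, with only 1 smolt, 77 were lower in S-CCS 1M, by a median of 1.68, against 36.9%. The part of the slides in the falls was not tested. Net-pen 1M was hybridized on slides 1 to 3 with no other group, so slide and group cannot be told apart there.

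Single features separated the fish to a varying degree. All 6 fish were below all 7 smolts for 38 of the 81 features in net-pen 1M, against 5.79% of all features, and for 24 in S-CCS 1M, against 0.526%. The numbers were 23 in net-pen 4M, against 3.73%, and 31 in S-CCS 4M, against 10.5%. The rule had used these contrasts, and nothing is read from the counts beyond the overlap of fish. In 9 features all 24 post-smolts lay below all smolts, among them Ssa#S35534614 and Ssa#CK895788. In 12 features no post-smolt lay below all smolts. Ssa#S26387025 was 1 of them only because a blank in smolt fish 1 was set to 16. The counts of 9 and 12 are not given over all features, so no trait of the 81 is read from them. The lowest smolt was fish 12 for 35 features and fish 1 for 32. Without smolt fish 1, the numbers of features with separate groups were 42, 25, 28 and 42 in the same order as above, against 6.84%, 0.707%, 4.58% and 12.2% of all features. Fish of 1 group varied more in these features than in others. The median within-group standard deviation was 0.72 in post-smolts and 0.75 in smolts on the log2 scale, against 0.33 over all features in either. A rule on differences between medians of 6 or 7 fish can itself favour features that vary. The contrast is therefore a description, and the part of the rule in it was not tested. It was highest in post-smolts for Ssa#S31998488, at 2.74. This feature had 5 in smolt fish 6, a blank in smolt fish 2 and 105 to 183 in the other smolts. With blanks counted as 16, 10 fish were at or below 16, and 5 of 7 smolt arrays were well above background.

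Ssa#CB509156 had the largest fall. In smolts its intensity was 87863, 64152, 59746, 24141, 9406, 40631 and 31050 in fish 1, 11, 12, 2, 3, 6 and 7. In net-pen 1M it was 73853 in fish 1 and 116, 30, 34, 16 and 180 in the others. The first fish was within the range of the smolts, and the other post-smolts lay far below it. The ranges were 12 to 331 in S-CCS 1M, 12 to 291 in net-pen 4M and 6 to 80 in S-CCS 4M. The fall was smallest for net-pen 1M, at 9.34, and was 11.02 for S-CCS 1M, 10.82 for net-pen 4M and 11.23 for S-CCS 4M. Many post-smolt values lay at or near the floor of 16, with 8 fish at or below it, so the size of the fall depends on the floor: with a floor of 64 it ranged from 8.88 to 9.31. The probe was nevertheless called well above background by the scanner software on all 31 arrays.

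Ssa#CK888312 and Ssa#CK892092 varied with each other from fish to fish (Pearson's r 0.96 over the 24 post-smolts after removal of group means, and 0.97 over the 7 smolts), in values that share arrays and scaling. Smolts had 1546 to 21658 of Ssa#CK888312, with a median of 11594. Net-pen 1M fish 1, the fish with the smolt-like Ssa#CB509156, had the highest values of all 31 fish, 37693 of Ssa#CK888312 and 92444 of Ssa#CK892092. The other net-pen 1M fish had 884, 592, 1152, 161 and 2547 of Ssa#CK888312. In S-CCS 1M the fish were split, with 6 in fish 1 and 6, and 3260, 1092, 2850 and 632 in fish 11, 12, 2 and 7. Ssa#CK892092 was 16 and 24 in the same fish 1 and 6, and between 11260 and 34883 in the other S-CCS 1M fish. The 4M groups had no such fish, with 42 to 1027 of Ssa#CK888312 in net-pen 4M and 108 to 1085 in S-CCS 4M. On the arrays of S-CCS 1M, 4 of 6 were well above background for Ssa#CK888312. At 1M its fall was 3.52 for net-pen and 3.80 for S-CCS, and at 4M 6.17 for net-pen and 4.26 for S-CCS.

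Among the 8 features with the largest average fall, Ssa#S35534614 and Ssa#CK895788 were those with all post-smolts below all smolts. Ssa#S35534614 was 22688 to 71782 in smolts, with a median of 50253, and 890 to 11458 in net-pen 1M. It was 1561 to 10873 in S-CCS 1M, 2052 to 6665 in net-pen 4M and 3605 to 19390 in S-CCS 4M. Its fall was 3.84 on average and smallest in S-CCS 4M, at 2.76. Ssa#CK895788 was between 990 and 2151 in smolts. Its values in fish 1, 11, 12, 2, 6 and 7 were 86, 45, 200, 38, 82 and 48 in net-pen 1M, and those of S-CCS 1M were 142, 96, 103, 90, 122 and 92. At 4M they were 331, 341, 198, 147, 465 and 355 in net-pen and 245, 186, 165, 122, 100 and 132 in S-CCS. In net-pen the fall of this feature was thus 4.47 at 1M and 2.05 at 4M, and the S-CCS values were 3.81 and 3.24.

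**Figure D2:**
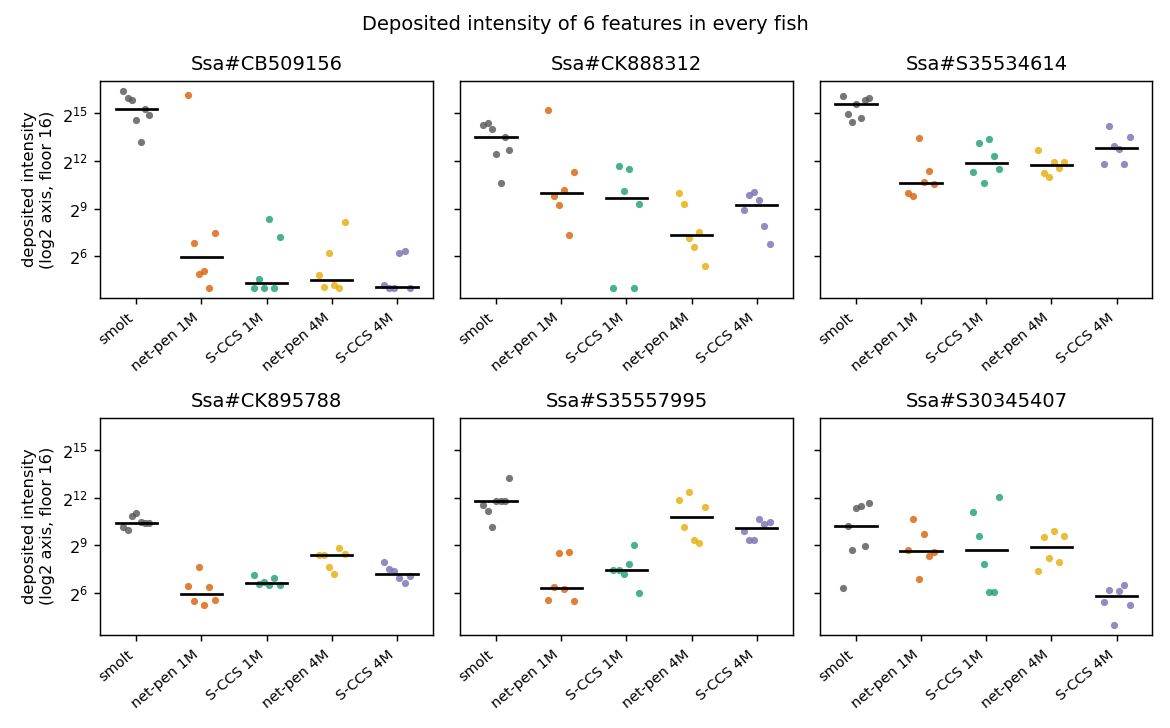
Deposited intensity of 6 features in every fish, on a log2 axis with values under 16 drawn at 16. Points are fish (7 smolts, 6 in each post-smolt group) and bars are medians. Net-pen 1M fish 1 stands at 73853 for Ssa#CB509156, S-CCS 1M fish 1 and 6 stand at the floor for Ssa#CK888312, Ssa#S35557995 is higher in both 4M groups than in the 1M groups, and Ssa#S30345407 is lowest in S-CCS 4M.

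Close to the limits of the rule, the features inside and outside had nearly the same values. Ssa#GRASP221221711 and Ssa#S35509175 were included with highest group medians of 6.00 and 6.04 on the log2 scale, while Ssa#S35551910 with 5.91 and Ssa#S18892258 with 5.83 were not. Ssa#S30290391 and Ssa#S35568346 had smallest falls of 0.804 and 0.805 and were included, and Ssa#S35550197 with 0.799 and Ssa#GRASP221221657 with 0.791 were just outside. The list also depended on the smolts, since without 1 smolt at a time between 60 and 109 features met the rule. Without smolt fish 2 there were 60, of which 56 were among the 81. Without smolt fish 1 there were 109, of which 76 were among the 81.

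The 81 features did not behave as a single group. The deviations of the 24 post-smolts from their group means, in log2-ER (log2 expression ratios, processed as for the tests), were correlated between all pairs of features, which leaves out the differences between groups. The median correlation over the 3240 pairs was 0.07, and 135 pairs were above 0.8. Features were joined by average linkage down to a correlation of 0.6, which gave 9 sets of at least 3 features with 54 features in all, while 27 remained outside. The sets, named A to I by size, were formed after the values had been seen and carry no test of their own. The points of these correlations share arrays and scaling, and the part of array effects in them was not tested.

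Set A, with 14 features including Ssa#S48368989, Ssa#S30345407 and Ssa#S30290391, varied widely between fish within the groups, smolts included, with a median standard deviation of 1.52 in post-smolts and 2.14 in smolts on the log2 scale. The median correlation between its features was 0.89 in post-smolts and 0.97 in smolts. Ssa#S48368989 was 738, 29170, 4372, 28687, 34317, 8006 and 50239 in smolt fish 1, 11, 12, 2, 3, 6 and 7. It was 11021 to 25434 in net-pen 1M, 910 to 50613 in S-CCS 1M, 2761 to 24619 in net-pen 4M and 817 to 29403 in S-CCS 4M. Smolt fish 1 was thus below all post-smolts, and the fall of the set was a shift of medians between widely overlapping groups. By the mean log2 intensity, Ssa#S48368989 was not lower in net-pen 1M, at 13.99, than in smolts, at 13.56. The same held for Ssa#S30290391, at 8.03 against 7.78, and Ssa#S37437536, at 8.47 against 8.26. For Ssa#S37437536 the mean was also higher in S-CCS 1M, at 8.36. The other features of the set had lower means in every post-smolt group. None of the 14 features had a post-smolt group wholly below the smolts, and in 8 of them no post-smolt was below the lowest smolt. The median fall of the set was 1.05 and 1.37 at 1M, for net-pen and S-CCS, and 1.83 and 1.91 at 4M.

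Set D had 4 features, Ssa#GRASP221221375, Ssa#CK882427, Omy#S27585481 and Omy#DV197843, with a median correlation of 0.95 in post-smolts. Ssa#GRASP221221375 was 297 in smolt fish 1 and between 1468 and 18855 in the other smolts. It was 400, 262, 436, 635, 2288 and 337 in net-pen 1M fish 1, 11, 12, 2, 6 and 7, and 667, 115, 3740, 164, 914 and 174 in the S-CCS 1M fish of the same numbers. It was between 881 and 2895 in net-pen 4M and between 325 and 689 in S-CCS 4M. For this feature every net-pen 4M fish lay above every S-CCS 4M fish, while Omy#S27585481 overlapped slightly, with 153 to 478 in net-pen 4M and 55 to 163 in S-CCS 4M. The difference at 4M was tested with the comparisons between systems and was called in none of the 4 features, with differences from 1.61 to 1.85 and adjusted p from 0.121 to 0.215 (limma), and at an unadjusted p under 0.05 in 3. The share of all features at that unadjusted threshold is not given for this comparison. The fall of Ssa#GRASP221221375 was 1.54 for net-pen 4M and 3.34 for S-CCS 4M, and that of Ssa#CK882427 was 1.55 and 3.13. Smolt fish 1 was the lowest smolt for both.

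Set G had 3 features and included Ssa#S35534614, and all 3 separated each of the net-pen 1M, S-CCS 1M and net-pen 4M groups from smolts. Set F held Ssa#CK888312, Ssa#CK892092 and Ssa#DY700748. Ssa#DY700748 went with the others among post-smolts and against them among smolts, where the median correlation within the set was -0.64. It was 652 to 4278 in smolts and 35 and 31 in S-CCS 1M fish 1 and 6, the fish in which the other members of the set were near the floor, against 228 to 1203 in the other S-CCS 1M fish. The remaining sets had 7 features (C), 4 (E) and 3 each (H and I), with median falls between 0.95 and 2.31 in any group.

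**Figure D3:**
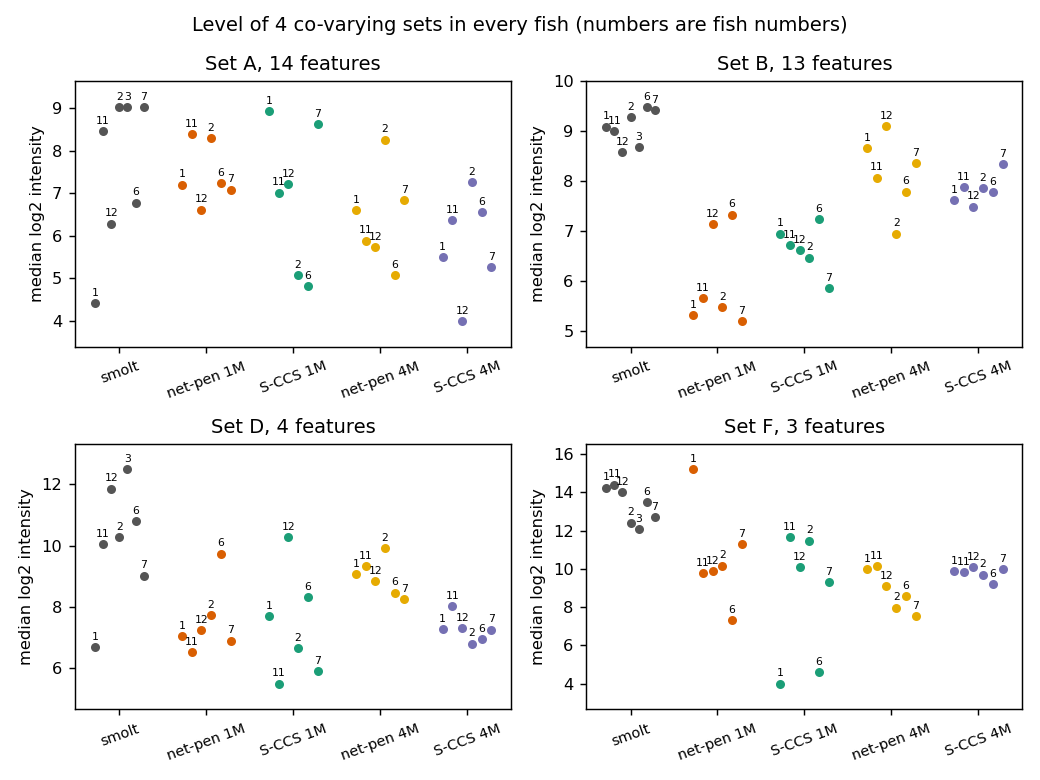
Median log2 intensity over the features of sets A, B, D and F in every fish, with fish numbers beside the points. The sets have 14, 13, 4 and 3 features. Set B is higher at 4M than at 1M in net-pen, apart from an overlap of net-pen 4M fish 2 with net-pen 1M fish 6 and 12, and set A overlaps widely between smolts and post-smolts.

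Differences between post-smolt groups had no part in the rule, although the same fish had entered it. They were tested with limma on lowess-corrected log2-ER in 1 fit of all 31 arrays, over 14172 features that passed a filter on background, including all 81. A feature was called at a Benjamini-Hochberg adjusted p under 0.05. The standard error of each difference is given after the sign ±. At the criteria of the study's methods, an unadjusted p under 0.05 with a log2-ER beyond 0.8 either way, 15 of the 81 features were called between the systems at 1M, 11 between them at 4M, 22 for time in net-pen, 15 for time in S-CCS and 12 for the difference of these changes. The shares of all features were 6.15%, 5.49%, 8.15%, 8.83% and 16.9%.

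From 1M to 4M in net-pen, 15 of the 81 features were called higher and 2 lower, with a median difference of 0.30 over the 81 and -0.02 over all features tested. Of all features 5.09% were called higher and 2.73% lower in this comparison, against 18.5% and 2.47% of the 81. By sign alone, 50 of the 81 were above 0. All features of sets C, D and G were above 0 and all of sets A and H below 0 (medians -0.79 and -0.84), none of them called. Set B contributed 13 of the 15, which were all of its features, with differences from 1.37 to 3.94. Only 2 features outside set B were called higher, so the share of 18.5% rests largely on this set. The features of set B co-varied within groups, with a median correlation of 0.78 in post-smolts. Their shared direction, in this and the later comparisons, does not count as 13 separate results. These features still had lower medians in net-pen 4M than in smolts, as the rule required, with a median fall of 3.25 at 1M and 0.97 at 4M. For S-CCS the median fall of the same 13 features was 2.23 at 1M and 1.65 at 4M.

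Ssa#S35557995, in set B, was 2953, 2315, 1140, 3554, 3630, 3489 and 9640 in smolt fish 1, 11, 12, 2, 3, 6 and 7. In fish 1, 11, 12, 2, 6 and 7 it was 48, 82, 363, 76, 378 and 46 in net-pen 1M, and 3735, 1162, 5220, 643, 574 and 2782 in net-pen 4M. All net-pen 4M fish were above all net-pen 1M fish, and 4 of them were within the range of the smolts. The rise in net-pen was 3.94 ± 0.62 (adjusted p = 0.000185, limma). In S-CCS it was 176, 179, 149, 230, 519 and 63 at 1M and 942, 643, 654, 1593, 1304 and 1418 at 4M, again without overlap, and the rise was 2.77 ± 0.62 (adjusted p = 0.00315, limma). Ssa#S35581849 varied with it (r 0.99 over the 24 post-smolts after removal of group means) and rose by 3.91 ± 0.63 in net-pen (adjusted p = 0.000235, limma) and 2.83 ± 0.63 in S-CCS (adjusted p = 0.00299, limma). Whether the probes match near-identical transcripts was not tested.

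Ssa#S35568346 had the lowest adjusted p of the rise in net-pen. It was 437 to 1035 in smolts, 77, 72, 115, 68, 161 and 101 in net-pen 1M and 591, 447, 618, 182, 387 and 516 in net-pen 4M. In these intensities the 4M fish were above all 1M fish, and fish 2 was the lowest of them. The rise was 2.16 ± 0.30 in net-pen (adjusted p = 6.8e-05, limma) and 1.31 ± 0.30 in S-CCS (adjusted p = 0.00379, limma), where values went from 84 to 151 at 1M to 180 to 324 at 4M. Among the other features of set B, Ssa#S35547501 had 15972 to 26578 in smolts, 1852 to 5170 in net-pen 1M and 4231 to 13300 in net-pen 4M, and it was 1 of the 9 features with all post-smolts below all smolts.

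Outside set B, Ssa#CK895788 rose by 2.09 ± 0.34 in net-pen (adjusted p = 0.000311, limma) and Omy#CA368785 by 1.15 ± 0.32 (adjusted p = 0.0254, limma). The 2 features called lower in net-pen at 4M than at 1M were Ssa#GRASP209734157 and Ssa#CB511703. Ssa#GRASP209734157 was 1213 to 2762 in smolts, 592, 606, 315, 574, 483 and 526 in net-pen 1M and 263, 542, 446, 296, 272 and 178 in net-pen 4M. These groups overlapped, and the difference was -0.89 ± 0.23 (adjusted p = 0.0174, limma). The adjusted p was 0.0578 without net-pen 4M fish 7, 0.0539 after normexp and 0.0522 without lowess. Ssa#CB511703 went from 15 to 153 in net-pen 1M to 7 to 36 in net-pen 4M, where 5 of 6 arrays were well above background, a difference of -2.04 ± 0.64 (adjusted p = 0.0452, limma). This call was near the threshold and held in 16 of the 31 fits without 1 fish, with adjusted p up to 0.121 in the others. It was also lost after normexp, where the difference was -0.95, without lowess, with the deposited table and with array weights, with adjusted p between 0.0599 and 0.0692.

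The number of features called in net-pen was between 16 and 24 with other processing and between 14 and 19 without any single fish. Net-pen 1M and net-pen 4M shared no slide, and slide and time in net-pen cannot be told apart, since slides 1 to 3 held net-pen 1M alone. With slide as a random block 18 features were called. The scanner software had divided the signal by a spatial trend on 4 of the 6 net-pen 4M arrays and 1 of the net-pen 1M arrays, and without this step 18 features were called as well.

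In S-CCS, 5 of the 81 features were called higher at 4M than at 1M and 2 lower, with 7.54% of all features called higher and 9.07% lower. The share called higher, 6.17%, was near that of all features, and the share called lower, 2.47%, was below it. Those called higher were Ssa#S35581849, Ssa#S35557995, Ssa#S35568346 and Ssa#S35547501 of set B, which were called in net-pen too, and Ssa#DY700748 of set F. Ssa#DY700748 rose by 2.64 ± 0.68 (adjusted p = 0.00875, limma), from 35, 1203, 276, 267, 31 and 228 in S-CCS 1M to 935, 708, 650, 830, 583 and 1007 in S-CCS 4M, and the groups overlapped through fish 11. The fish with 31 and 35 were those near the floor in the rest of the set. All 13 features of set B had differences above 0 in S-CCS, between 0.41 and 2.83.

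Ssa#S30345407 of set A fell in S-CCS by 3.17 ± 0.97 (adjusted p = 0.0255, limma). It was 2251, 761, 224, 66, 68 and 4305 in S-CCS 1M and 44, 74, 12, 70, 92 and 38 in S-CCS 4M, where all fish were low and overlapped with fish 2 and 6 of S-CCS 1M. Without S-CCS 1M fish 1, 11 or 7 or S-CCS 4M fish 12 the adjusted p was between 0.0537 and 0.0834. Ssa#S26387025 of set H fell by 1.61 ± 0.54 (adjusted p = 0.0388, limma), from 642 to 3544 in S-CCS 1M to 158 to 683 in S-CCS 4M. Without S-CCS 1M fish 1, 12 or 6 or S-CCS 4M fish 12, 6 or 7 its adjusted p was between 0.0647 and 0.104. It was also not called after normexp (adjusted p = 0.125, limma) or with the deposited table (adjusted p = 0.209, limma), and Ssa#S30345407 was not called after normexp, with a difference of -1.89 (adjusted p = 0.102, limma). S-CCS 1M and S-CCS 4M shared no slide. S-CCS 4M shared slides with smolts only. With slide as a fixed block it is therefore linked to the other post-smolts only through smolts, fish that the rule had used. The precision of that fit was not compared with that of the main fit, so a lost call in it is not read as a part of the slides. Over the 25 arrays outside net-pen 1M with slide as a fixed block, 1.48% of all features were called in either direction. Of the 81, 2 were called, Ssa#GRASP209154423 and Ssa#S18835321, which differ from the 7 above. With the block they rose by 4.70 and 4.22 (adjusted p = 0.0239 and 0.0269, limma). Their group means of log2-ER rose less, from -2.03 at 1M to -0.63 at 4M and from -1.75 to -0.64. Of Ssa#GRASP209154423, the linking smolts had 178 to 847 on slides 7 and 10, but 61 to 190 on slides 5 and 6. The part of this spread in the 2 calls was not tested. With the block the fall of Ssa#S26387025 was smaller, at -0.82 (adjusted p = 0.725, limma), and that of Ssa#S30345407 was -2.27 (adjusted p = 0.676, limma). The differences were 2.10 for Ssa#S35557995, 1.87 for Ssa#S35581849, 1.49 for Ssa#S35568346, 0.68 for Ssa#S35547501 and 1.81 for Ssa#DY700748, with adjusted p between 0.189 and 0.557. The random block, with a correlation of -0.04 within slides, gave 7.

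**Figure D4:**
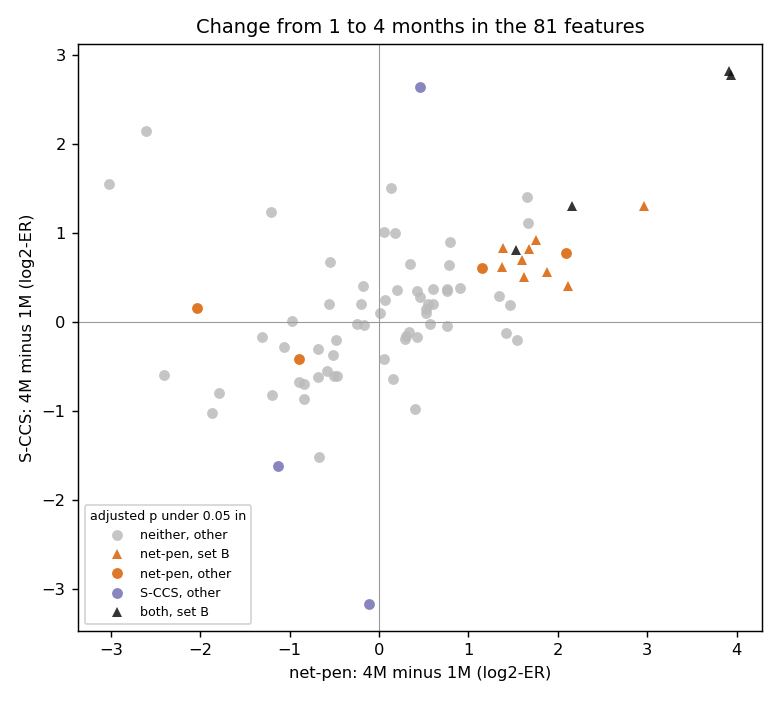
Change from 1M to 4M of the 81 features in net-pen (horizontal) and S-CCS (vertical), in log2-ER from the limma fit. Triangles are the 13 features of set B and colours show where the adjusted p was under 0.05. All triangles lie to the right of 1.37 and above 0, and the largest differences are those of Ssa#S35557995 and Ssa#S35581849.

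The features that were called in net-pen and not in S-CCS are not thereby shown to differ between the systems. In the test of that difference, the change in net-pen minus the change in S-CCS, 1 of the 81 features was called higher and 0 lower, with 8.23% and 7.94% of all features called by limma. At an unadjusted p under 0.05 the numbers were 8 and 6, against 16.4% and 15.6% of all features, so at this threshold the share among the 81 features was the lower one in both directions. The called feature was Ssa#S18860977 of set B, with a difference of 1.71 ± 0.53 (adjusted p = 0.0281, limma). Smolts had 102 to 236. The net-pen fish had 16, 16, 23, 17, 45 and 18 at 1M, against 107, 79, 142, 21, 59 and 89 at 4M. The S-CCS fish had 42, 45, 36, 79, 56 and 24 at 1M, against 49, 51, 36, 61, 55 and 68 at 4M. The rise from 1M to 4M in net-pen was 2.12 ± 0.37 (adjusted p = 0.000612, limma), with only fish 2 of net-pen 4M within the range of net-pen 1M, and the S-CCS groups overlapped. All 13 features of set B had a difference of changes above 0, between 0.55 and 1.71, but they co-varied and do not count as 13 separate results. Net-pen 1M shared no slide with another group, so slide and group cannot be told apart in this difference.

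The count for this difference rested on single fish and on the processing. It was 9 without net-pen 4M fish 2, 4 without net-pen 1M fish 6 and 3 without net-pen 1M fish 12. It was 2 without net-pen 1M fish 7, net-pen 4M fish 12, S-CCS 1M fish 11 or 6, or S-CCS 4M fish 1, and 0 without S-CCS 4M fish 12, where Ssa#S18860977 had an adjusted p of 0.0534 (limma) and 6 features were higher and 2 lower at an unadjusted p under 0.05. Net-pen 4M fish 2 was the lowest net-pen 4M fish in set B. Without lowess 9 features were called, 6 of them in set B, and with array weights 8, 5 of them in set B. The count was 3 with slide as a random block, and 3 without spatial detrending. After normexp 0 were called by limma, with 9 higher and 2 lower at an unadjusted p under 0.05, and the difference of Ssa#S18860977 was 0.87 (adjusted p = 0.0827). When the deposited values were used, again 0 were called, with 9 higher and 5 lower at an unadjusted p under 0.05, and that difference was 1.34 (adjusted p = 0.0549, limma). Shares of all features under these alternatives are not given, so the changed counts are not read as a result about the 81 features.

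Between the systems at 1M, 3 of the 81 features were lower in net-pen and 0 higher, against 3.30% and 3.15% of all features (limma), a share of 3.70% that was near that of all features. At an unadjusted p under 0.05 there were 16 lower and 3 higher, against 12.5% and 11.6% of all features. The 3 features had low signals. Ssa#GRASP221221711 was 53 to 82 in smolts, 17, 15, 24, 15, 16 and 12 in net-pen 1M, against 28, 21, 40, 62, 29 and 17 in S-CCS 1M, and differed by -1.04 ± 0.26 (adjusted p = 0.0198, limma). Ssa#S35657318 was 53 to 113 in smolts, 18 to 42 in net-pen 1M and 34 to 58 in S-CCS 1M, and differed by -0.90 ± 0.24 (adjusted p = 0.0242, limma). Ssa#S35588835 was 76 to 161 in smolts, 17 to 43 in net-pen 1M and 27 to 83 in S-CCS 1M, and differed by -1.11 ± 0.30 (adjusted p = 0.0287, limma). The groups overlapped in each. Since net-pen 1M shared no slide with S-CCS 1M, slide and system cannot be told apart here. The count was 6 without net-pen 1M fish 6 or net-pen 4M fish 2, 5 without net-pen 1M fish 11, net-pen 4M fish 12 or smolt fish 12, 1 without S-CCS 1M fish 6 and 0 without net-pen 1M fish 7, where 12 were lower and 1 higher at an unadjusted p under 0.05 (limma). Ssa#S35588835 also lost its call without net-pen 1M fish 1 or S-CCS 1M fish 11, 12 or 6, with adjusted p between 0.0519 and 0.0687, and Ssa#S35657318 without S-CCS 1M fish 6 (adjusted p = 0.0509, limma).

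Between the systems at 4M, 1 feature was higher and 4 were lower in net-pen, against 4.39% and 3.54% of all features, shares of 1.23% and 4.94% of the 81. Ssa#S30345407 was higher in net-pen 4M, at 165, 755, 293, 961, 247 and 776, than in S-CCS 4M, at 44, 74, 12, 70, 92 and 38. The groups did not overlap, and the difference was 3.28 ± 0.97 (adjusted p = 0.0363, limma). Without 1 fish, its call was lost for 8 of the 12 fish of these groups (net-pen 4M fish 11, 2 and 7 and S-CCS 4M fish 1, 12, 2, 6 and 7), with adjusted p up to 0.0888.

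Ssa#S35588835 was lower in net-pen at 4M as well, at 22, 23, 54, 21, 20 and 13 against 31, 63, 98, 60, 40 and 66 in S-CCS 4M, with an overlap of fish 12 and a difference of -1.51 ± 0.30 (adjusted p = 0.00393, limma). Ssa#GRASP209734157 was 178 to 542 in net-pen 4M and 497 to 727 in S-CCS 4M, also with a slight overlap, and differed by -1.18 ± 0.23 (adjusted p = 0.00399, limma). Both kept their call without any single fish. The other features lower in net-pen 4M were Ssa#CB511703, with a difference of -2.24 ± 0.64 (adjusted p = 0.0303, limma), and Ssa#AM042201, with -0.84 ± 0.26 (adjusted p = 0.0433, limma). Ssa#CB511703 lost its call without net-pen 4M fish 2 or 7 or S-CCS 4M fish 11 or 2, with adjusted p up to 0.0889. The count of 5 was 2 without net-pen 4M fish 7 or S-CCS 4M fish 2, and 3 without net-pen 4M fish 11 or S-CCS 4M fish 1, 11, 12 or 6.

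The 4M groups shared no slide, and with slide as a fixed block they are linked only through smolts, as described above. Over the 25 arrays outside net-pen 1M with slide as a fixed block, 0 of the 81 features were called by limma, against 0.12% of all features in either direction, with 3 higher and 3 lower at an unadjusted p under 0.05. The shares of all features at that threshold were 6.53% and 7.1%. In this fit Ssa#S35588835 differed by -0.90 (adjusted p = 0.501, limma) and Ssa#GRASP209734157 by -0.54 (adjusted p = 0.612, limma), both less than without the block. Ssa#S30345407 differed by 2.72, Ssa#CB511703 by -2.32 and Ssa#AM042201 by -0.91 (adjusted p = 0.66, 0.42 and 0.504, limma). After normexp, Ssa#S30345407 differed by 1.94 (adjusted p = 0.0974, limma). The part of the slides in the differences at 4M was not tested beyond these values.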

How the data were processed

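Skin RNA of 31 fish in 5 groups was profiled on single-colour arrays, 10 slides scanned on 1 day. Groups and fish numbers came from the sample labels. The authors deposited the scanner tables (Agilent Feature Extraction 12.0.1.1), whose processed signal is a background-subtracted intensity, and 1 further table. Compared with the scanner output, this table holds the median signal minus local background, scaled by a factor for each array (the log2 ratio had an SD of 0.00102 to 0.00133 within arrays, for values of at least 200). It chose the features and supplied the intensities printed, with 10025 blanks over the whole table. It holds no authors' fold changes or p-values. The features and lists were chosen with earlier results of these data known. Genes could not be named, and the lists of pathway genes and cell markers were therefore not used.

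For the tests, the steps named in the study's methods were followed. The processed signal of each array was scaled to the same mean and expressed as a ratio to the feature's mean. Lowess (span 0.3) against mean log2 intensity was applied to the log2 of the ratio. The signal, lowess variable and span were chosen here. No spot was saturated, and 145 values marked non-uniform or outlier were left out. A feature was kept where, in any group, 50% or more of the arrays were well above background (14172, with 669 removed). Array precision is limited by the number of arrays, and 84.3% to 97.1% of features per array were well above background.

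Groups were compared with limma 3.58.1 in R 4.3.3 (statmod 1.5.0), with Benjamini-Hochberg adjustment per comparison over all features kept. The labels give each array as a separate fish, and each system was 1 enclosure in the study's description, so p-values measure the spread between fish of that enclosure. Tables were handled with Python 3.11.15, numpy 2.4.6, pandas 2.3.3, scipy 1.17.1 and matplotlib 3.10.9, and the fit was tested on simulated data. Named features were the 8 with the largest average fall, the 2 with the lowest adjusted p in each direction of each comparison, the 3 most variable and those beside the limits of the rule. Ssa#S35588835 at 1M, Ssa#S48368989, Ssa#S35581849 in net-pen, Ssa#S35547501, Ssa#DY700748, Ssa#AM042201, Omy#CA368785, Omy#S27585481, Omy#DV197843, Ssa#GRASP209154423 and Ssa#S18835321 were added after their values were seen. The alternatives tried were normexp (offset 50), quantile normalization, 75th percentile scaling, no lowess, the deposited table, other filters, array weights, fish number or slide as a block, the methods' criteria (given in the results), another floor or the mean in the rule, and, added later, the fixed slide block, values before spatial detrending and leaving out 1 fish.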

Additional observations from a re-analysis of the deposited data

Results flagged for a closer look

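Among 105 groups of fish examined for 21 named features, the value of 1 fish stood far from the others in 7, where chance gives about 5.25 (1 in 20). Values under 16 were counted as 16 in this search. For Ssa#GRASP221221711 and Ssa#S35588835 this narrowed the spread of the other fish, and whether they stand out without the floor was not tested. Net-pen 1M fish 1 had 73853 of Ssa#CB509156, while the other fish of its group had at most 180. Net-pen 1M fish 12 was apart for 3 features, with 24 of Ssa#GRASP221221711 (others 12 to 17), 315 of Ssa#GRASP209734157 (others 483 to 606) and 307 of Ssa#S26387025 (others 1210 to 1898). The array of this fish had the lowest share of features well above background of all arrays, 84.3%, and its part in these values was not tested. Net-pen 4M fish 12 had 54 of Ssa#S35588835 (others 13 to 23). Net-pen 1M fish 6 had 45 of Ssa#S18860977 (others 16 to 23). Smolt fish 1 had no deposited value of Ssa#S26387025, set to 16 here, while the other smolts had 1583 to 6174. The scanner flagged this feature well above background on all 7 smolt arrays, so the 16 stems from the blank and is not a measured intensity. In the main limma fit the change of Ssa#S18860977 from 1M to 4M differed between the systems by 1.71 on the log2 scale. This call was lost after normexp, with the deposited values and without S-CCS 4M fish 12 (adjusted p 0.0534 to 0.0827, limma).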

How the results depend on the processing

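Each of the 33 called differences of the 81 features kept its direction in every alternative fitted to it and without any single fish. Of the 81 features, 3 were called between the systems at 1M, and the number was 5 with quantile normalization, 1 with normexp, 10 without lowess, 9 with array weights, 5 with slide as a random block, 6 without spatial detrending, 15 at the methods' criteria and 0 to 6 without 1 fish. For the systems at 4M, 5 were called, and the number was 3 with normexp, 0 with slide as a fixed block, 11 at the methods' criteria and 2 to 6 without 1 fish. For time in S-CCS, 7 were called, against 17 with array weights, 2 with slide as a fixed block, 15 at the methods' criteria and 5 to 8 without 1 fish. For the difference of changes, 1 was called, against 0 with normexp, 9 without lowess, 0 with the deposited table, 8 with array weights, 3 with slide as a random block, 3 without spatial detrending, 12 at the methods' criteria and 0 to 9 without 1 fish. The 17 calls of time in net-pen were 16 to 24 under the alternatives run, which did not include the fixed slide block (net-pen 1M shared no slide), and 14 to 19 without 1 fish. Apart from the fixed slide block and the methods' criteria, shares of all features under the alternatives and without 1 fish are not given. The changed counts, here and above, are therefore not read as a result about the 81 features. Of the calls of named features, normexp ended 8 (adjusted p 0.0536 to 0.125), the fixed slide block 9 (0.189 to 0.725), values of the deposited table ended 3 (0.0549 to 0.209), no lowess 2 (0.0522 and 0.0692) and array weights 1 (0.0613), all by limma. The highest value for the deposited table was that of Ssa#S26387025, whose blank in smolt fish 1 was set to 16. On the log2-ER scale 71 of the 81 features were lower by at least 0.8 in all 4 groups, and 42 after normexp. By the group means of log2-ER, which the tests compare, fewer than 71 met this limit, and their number is not given. Ssa#S30290391, for example, had a mean of 0.29 in net-pen 1M and -0.35 in smolts. The rule gave 69 features with a floor of 64 and 66 with means, of which 56 were among the 81, and 60 to 109 without 1 fish.

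With fish number as a replicate block, 4, 4, 17, 6 and 1 features were called at 1M, at 4M, for time in net-pen, for time in S-CCS and for the difference of changes, and the fall of Ssa#S26387025 in S-CCS lost its call (adjusted p = 0.0537, limma). The fish numbers do not pair samples of the same fish, since the study's methods state that fish were killed at sampling. The deviations of 60 pairs with the same number correlated between -0.42 and 0.35, with 16 above 0.1. Of the 31 fish, 8 correlated best with their own number. These correlations alone could not exclude a pairing.

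Intensities near 16 are close to background, so folds of low features are imprecise. The causes of changed counts were not tested.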
